A study of Mus musculus with 6 samples.

Results

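Transcripts of 10 genes that mark and specify the deep-layer neurons of the cerebral cortex were followed in cultured mouse cortical neurons. The genes, chosen by name with earlier results of these data known, were Tbr1, Bcl11b, Fezf2, Sox5, Foxp2, Tle4, Zfpm2, Nr4a2, Crym and Ldb2. All 10 were found by their identifiers among the 49671 genes of the deposited table, with 60 transcripts among 123063. All 10 were also among the 16847 genes that passed the filter on low counts and were tested.

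The neurons came from the neocortex of C57BL/6 embryos at embryonic day 14 and were grown in 35 mm dishes. The groups were neurons with the genotype label Ptbp2 KO after 1 day in vitro (DIV1), wild-type neurons after 3 days (DIV3), and wild-type neurons at DIV1, with 2 libraries each. Ptbp2 encodes a neuronal splicing regulator, and DIV3 is when a neurite becomes the axon in these cultures. The 2 libraries of each group are described as biological replicates, but no label says whether embryos, litters or culture days were separate; the p-values therefore rest on the spread between libraries, which may be technical. How Ptbp2 was inactivated is not given in the labels used here.

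The deep layers hold the first neurons born in the cortex. Layer 5 contains subcerebral neurons, whose axons reach the brainstem and spinal cord, layer 6 contains corticothalamic neurons, and the subplate lies below them. A network of transcription factors that act on one another separates these fates. Fezf2 and Bcl11b direct the subcerebral fate, and Tbr1 directs the corticothalamic fate and represses Fezf2.

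Libraries held between 39104879 and 75522198 expected counts, that is, read counts estimated by a model and not always whole. Mitochondrial genes took between 1.46% and 1.96% of them. Ptbp2 itself had 474 and 514 CPM (counts scaled to a common library size with TMM factors) in the knockout-labelled libraries, 403 and 382 CPM in wild type at DIV3, and 465 and 429 CPM in wild type at DIV1. The whole-gene count was not lower in the knockout-labelled libraries and does not check their label. Listed as pan-neuronal, 8 markers had summed levels of 5551 and 5864 CPM in the knockout-labelled libraries. They summed to 9291 and 9380 CPM in the DIV3 libraries and to 6144 and 6005 CPM in wild type at DIV1. None of the 8 was at 0 in any library, which at this depth does not measure the share of neurons. The knockout-labelled pair differed more than the other pairs, with a chi-square of 69.1 per gene against 17.3 at DIV3 and 21 in wild type at DIV1. Across genes, the log2 difference of its first library from its second had a Spearman correlation of -0.48 with transcript length, against 0.28 at DIV3 and 0.25 in wild type at DIV1. Genes are not independent replicates, so these correlations are descriptions.

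Compared per transcript length, as TPM, which scales each transcript's count by its length and then by the library's sum, the deep-layer genes spanned a wide range of levels. In knockout-labelled neurons Tbr1 was highest at 170.3 ± 16.5 TPM (SD, n = 2) and Foxp2 lowest at 5.29 ± 0.46 TPM. At DIV3 Ldb2 led with 195.7 ± 14.3 TPM, ahead of Tbr1 at 144.1 ± 11.6 TPM, and Foxp2 was again lowest at 2.76 ± 0.19 TPM. In wild type at DIV1 Tbr1 had 227.7 ± 14.1 TPM, Fezf2 120.9 ± 6.23 TPM, Sox5 95.97 ± 11.7 TPM and Bcl11b 87.98 ± 6.61 TPM. Below them were Tle4 at 52.52 ± 4.06 TPM and Ldb2 at 50.6 ± 0.47 TPM, then Nr4a2 at 18.43 ± 1.06 TPM, Zfpm2 at 14.86 ± 1.04 TPM, Crym at 10.92 ± 0.64 TPM and Foxp2 at 5.33 ± 0.18 TPM. In that order the libraries of Sox5 and Bcl11b overlapped, as did those of Tle4 and Ldb2, so neither pair has a settled order. In knockout-labelled neurons the overlapping neighbours were Bcl11b and Sox5, Tle4 and Ldb2, and Zfpm2 and Crym. At DIV3 they were Sox5 and Bcl11b, and Bcl11b and Tle4.

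**Figure D1:**
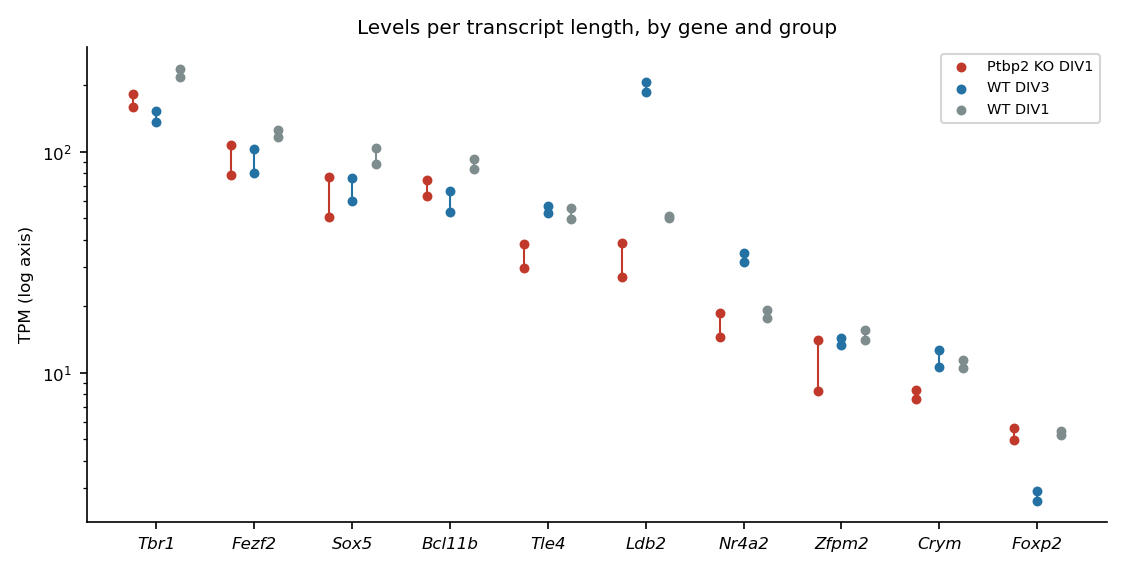
TPM of each gene in each library (log axis), with the genes ordered by their mean in wild type at DIV1; points are the 2 libraries of a group and the line joins them. Ldb2 stands sixth in wild type at DIV1 and first at DIV3, where its libraries lie at 185.6 and 205.8 TPM.

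Between DIV3 and DIV1 in wild type, the deep-layer genes went in opposite directions. Tbr1, Bcl11b, Sox5 and Foxp2 fell at DIV3, to between 0.535 and 0.686 of their DIV1 level. Ldb2, an adaptor that binds LIM domains, rose 3.75-fold and Nr4a2, an orphan nuclear receptor, rose 1.9-fold. Fezf2, Tle4, Zfpm2 and Crym did not pass the test. Thus 2 of 10 rose and 4 of 10 fell at an adjusted p under 0.05 (edgeR's quasi-likelihood F test, Benjamini-Hochberg over all tested genes). Over all tested genes 36.1% were called, 19.8% higher and 16.4% lower, so a call by itself was common in this comparison. Groups without overlap were common too. Both DIV3 libraries lay below both DIV1 libraries for 6547 of 16847 tested genes, and above them for 6291. Among the 10 genes these counts were 5 and 3. Leaving out 1 wild-type library left 2959 (first DIV1), 2743 (second DIV1), 2954 (first DIV3) or 3408 (second DIV3) called genes, against 6088 with all libraries. The median log2 fold change was -0.21 over the 10 genes and -0.02 over all tested genes. For the 10 it was -0.12 without the second DIV3 library, and with library totals as the scaling it was -0.33 for the 10 and -0.13 for all tested genes. In bulk RNA, fewer cells of a type and less RNA per cell cannot be told apart.

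**Figure D2:**
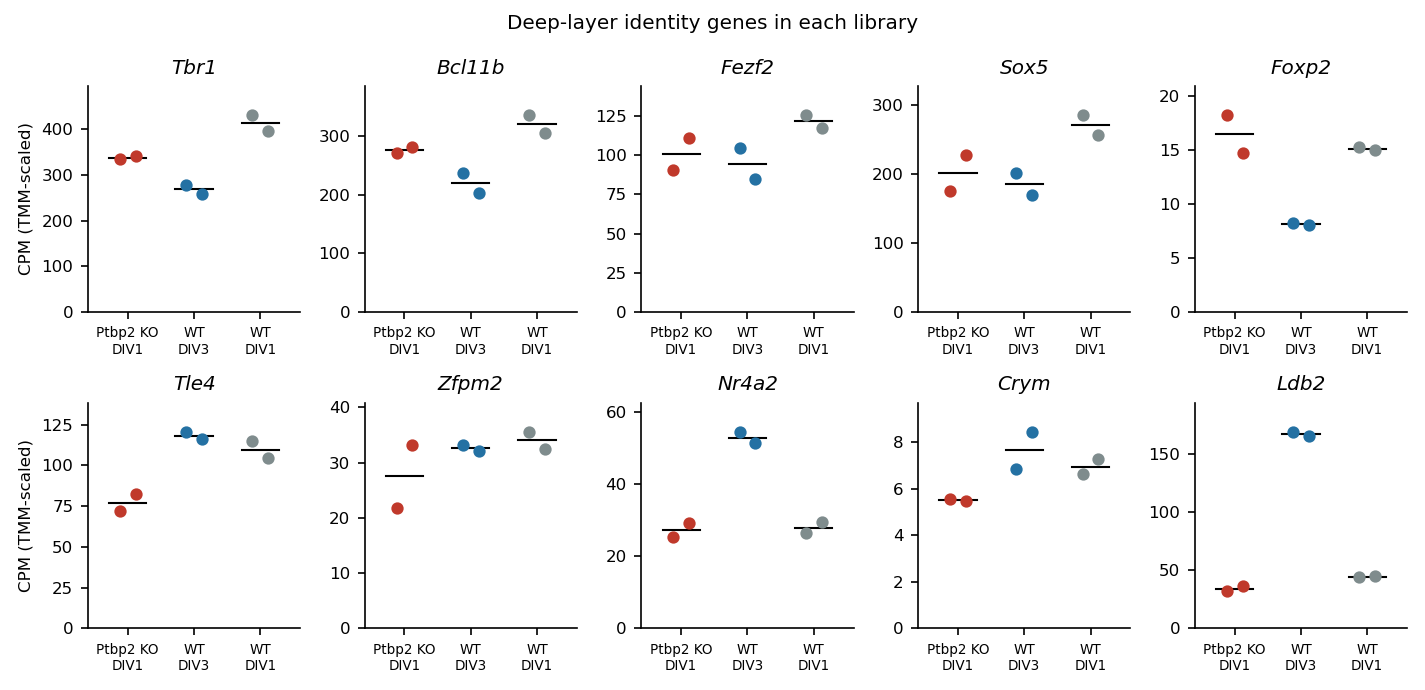
CPM of the 10 genes in each of the 6 libraries (linear axes from 0, TMM-scaled); points are libraries and bars are group means. Tbr1, Bcl11b, Sox5 and Foxp2 lie lower at DIV3 than in wild type at DIV1, and Ldb2 and Nr4a2 lie higher.

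Tbr1 (ENSMUSG00000035033, chr2:61802930-61814114, plus strand, GRCm38) encodes the T-box factor that specifies layer 6 neurons. It had 278.8 and 258.5 CPM at DIV3, against 430.4 and 397.1 CPM in wild type at DIV1. Both DIV3 libraries lay below both DIV1 libraries, and the log2 fold change was -0.62 ± 0.08 (SE; edgeR adjusted p = 0.00184). Bcl11b (CTIP2; ENSMUSG00000048251, chr12:107910403-108003602, minus strand) encodes a zinc-finger factor needed for corticospinal axon growth. It had 236.4 and 202.4 CPM at DIV3, against 334.9 and 305.6 CPM at DIV1. The groups again did not overlap, and the log2 fold change was -0.55 ± 0.10 (edgeR adjusted p = 0.00593). That call was lost without the first wild-type DIV1 library (edgeR adjusted p = 0.0636) and without the second DIV3 library (0.0567).

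Sox5 (ENSMUSG00000041540, chr6:143828425-144781977, minus strand) encodes a SoxD factor that times the production of successive deep-layer neuron types. Its level was 201.7 and 170.5 CPM at DIV3, against 285.4 and 257.6 CPM at DIV1. The groups did not overlap, and the log2 fold change was -0.54 ± 0.14 (edgeR adjusted p = 0.0253). The call did not hold when any 1 of the 4 wild-type libraries was left out: the adjusted p was 0.145 without the first and 0.0809 without the second DIV1 library, and 0.0571 without the first and 0.155 without the second DIV3 library. Foxp2 (ENSMUSG00000029563, chr6:14901349-15441977, plus strand) encodes a forkhead factor of layer 6 neurons. It was at 8.20 and 8.02 CPM at DIV3, against 15.3 and 15.0 CPM at DIV1. The replicates were close and the groups far apart, at a log2 fold change of -0.90 ± 0.13 (edgeR adjusted p = 0.00234).

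Fezf2 (ENSMUSG00000021743, chr14:12342094-12348189, minus strand), the zinc-finger selector of the subcerebral fate, had 104.6 and 84.87 CPM at DIV3, against 125.5 and 117.8 CPM at DIV1. Its DIV3 libraries were both lower, but the log2 fold change of -0.36 ± 0.13 did not pass (edgeR adjusted p = 0.0736). It passed when the knockout-labelled libraries were kept out of the fit (log2 fold change -0.36, adjusted p = 0.0135), and when either one of them was left out (0.0105 without the first, 0.0113 without the second). Without a wild-type library it did not pass, with an adjusted p of 0.271 and 0.187 (first and second DIV1 library) and 0.0654 and 0.357 (first and second DIV3 library), and its log2 fold change was -0.21 without the second DIV3 library.

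Ldb2 (ENSMUSG00000039706, chr5:44472132-44799680, minus strand) encodes a LIM-domain-binding adaptor that assembles LIM transcription factors into complexes and marks layer 5 subcerebral neurons. It had 168.9 and 165.7 CPM at DIV3, against 44.36 and 44.74 CPM at DIV1. The replicates differed by far less than the groups, and the log2 fold change was 1.91 ± 0.08 (edgeR adjusted p = 6.65e-05). Nr4a2 (Nurr1; ENSMUSG00000026826, chr2:57106830-57124003, minus strand) encodes an orphan nuclear receptor found in subplate neurons. Its level was 54.4 and 51.28 CPM at DIV3, against 26.36 and 29.35 CPM at DIV1. Both DIV3 libraries lay above both DIV1 libraries, at a log2 fold change of 0.92 ± 0.11 (edgeR adjusted p = 0.00112).

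Tle4 (ENSMUSG00000024642, chr19:14448150-14598051, minus strand), a Groucho-type corepressor of layer 6 neurons, had 120.6 and 116 CPM at DIV3, against 115.2 and 104.3 CPM at DIV1. Its log2 fold change of 0.11 ± 0.09 did not pass (edgeR adjusted p = 0.404), and its sign turned to -0.01 when libraries were scaled by their totals. Zfpm2 (FOG2; ENSMUSG00000022306, chr15:40655035-41104592, plus strand), a zinc-finger cofactor, had 33.21 and 32.09 CPM at DIV3, against 35.56 and 32.49 CPM at DIV1. Crym (ENSMUSG00000030905, chr7:120186380-120202111, minus strand), which encodes a thyroid-hormone-binding protein, had 6.86 and 8.45 CPM at DIV3, against 6.63 and 7.28 CPM at DIV1. The groups overlapped for both genes, with log2 fold changes of -0.06 ± 0.19 for Zfpm2 and 0.13 ± 0.14 for Crym (edgeR adjusted p = 0.832 and 0.497).

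Libraries were also compared after removal of each library's trend with transcript length. The median log2 fold change of DIV3 over DIV1 ran from -0.16 in the fifth of genes with the shortest transcripts to 0.15 in the fifth with the longest. With the trend removed the 6 calls stood, and the log2 fold changes were -0.69 for Tbr1, -0.74 for Bcl11b, -0.71 for Sox5, -1.06 for Foxp2, 0.89 for Nr4a2 and 1.96 for Ldb2.

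The other genes of the deep layers were read from lists that hold none of the 10. Of 10 further subcerebral layer 5 genes 5 rose and 1 fell at DIV3, with a median log2 fold change of 0.50. Cdh13, an adhesion molecule, averaged 251 ± 5.23 CPM at DIV3 and 156 ± 4.71 CPM in wild type at DIV1 (log2 fold change 0.69 ± 0.07, edgeR adjusted p = 0.000602), and Ntng1, a netrin-G, also rose (0.84 ± 0.12, adjusted p = 0.00199). Igfbp4, which binds insulin-like growth factors, fell, at 10 ± 1.33 CPM at DIV3 and 31.9 ± 0.72 CPM at DIV1 (-1.67 ± 0.17, adjusted p = 0.000636). Pcp4, the most abundant of the 4 that did not pass, was at -0.02 ± 0.16.

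Of 8 corticothalamic layer 6 genes 5 rose and 2 fell. The neurotensin receptor gene Ntsr1, a standard layer 6 marker, averaged 44.4 ± 3.28 CPM at DIV3 and 14.3 ± 0.85 CPM at DIV1 (log2 fold change 1.64 ± 0.12, edgeR adjusted p = 0.000216). Cdh18, a cadherin gene, rose (2.77 ± 0.20, adjusted p = 0.000184) and Ppp1r1b (DARPP-32), an inhibitor of protein phosphatase, fell (-1.53 ± 0.13, adjusted p = 0.000309). Thsd7b was the gene that did not pass (0.35 ± 0.26). Of 9 subplate genes 4 rose and 3 fell: Pls3, which encodes an actin-bundling protein, was at 1.07 ± 0.08 (edgeR adjusted p = 0.000235), Tmem163 at 0.79 ± 0.11 (0.0021) and Nxph4 at -1.35 ± 0.12 (0.000356), while Ccn2 at -0.40 ± 0.18 did not pass. The layer 6 transcription factors Tbr1 and Foxp2 thus fell in the same libraries in which Ntsr1 rose.

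Among 21 regulators of cortical fate 8 rose and 6 fell, including Rorb (log2 fold change 1.39 ± 0.09, edgeR adjusted p = 0.000141), a layer 4 nuclear receptor, Lmo4 (0.72 ± 0.08, adjusted p = 0.000878) and Nfia (-1.20 ± 0.09, adjusted p = 0.000202). Sox4, the most abundant that did not pass, was at 0.15 ± 0.15. From this list on, some genes stand in several lists, among them Rorb, Lmo4, Eomes, Calb2 and Reln. The counts per list are therefore not independent.

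Paralogs of the 10 genes also moved in both directions: of 15 tested among 18 listed, 3 rose and 5 fell. Eomes (Tbr2), the T-box factor of intermediate progenitors, was at -1.21 ± 0.07 (edgeR adjusted p = 0.000109), Sox13, a second SoxD factor, at -2.25 ± 0.18 (0.000253), and Foxp1 at 0.64 ± 0.08 (0.00145). Foxp1 rose and Foxp2 fell, and the difference between them was not tested. Bcl11a (CTIP1) was at -0.23 ± 0.11 and did not pass. Of 9 partners of LIM cofactors, the proteins with which LDB2 forms complexes, 4 rose and 2 fell. Ssbp2, a single-stranded DNA-binding cofactor, averaged 262 ± 28.8 CPM at DIV3 and 76.5 ± 0.68 CPM in wild type at DIV1 (log2 fold change 1.78 ± 0.13, edgeR adjusted p = 0.000199). Lmo3 rose by 0.86 ± 0.11 (adjusted p = 0.00133), and Ssbp3 at -0.24 ± 0.08 did not pass (0.055).

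Markers of other cells differed between the same libraries. The marker lists were written by name, and their genes were not checked for being particular to 1 cell type. All 10 genes listed for intermediate progenitors, Elavl4 among them, and 6 of 9 radial glia markers fell at DIV3 (2 radial glia markers rose). Of 12 upper-layer markers 9 rose and 1 fell. The summed level of the intermediate progenitor markers was 624.4 to 641.9 CPM at DIV3 and 1072 to 1114 CPM in wild type at DIV1, and that of the upper-layer markers 2196 to 2328 CPM at DIV3 and 1501 to 1572 CPM at DIV1. The radial glia sum was 1815 to 1858 CPM at DIV3 and 1923 to 1981 CPM at DIV1, and the pan-neuronal list had 5 of 8 higher and 1 lower. Of the remaining lists, interneuron markers had 6 of 12 higher and none lower, Cajal-Retzius markers 2 higher and 2 lower of 8, astrocyte markers 4 higher and 2 lower of 6 tested, oligodendrocyte lineage markers 3 of 7 higher, and pericyte and fibroblast markers 7 of 7 higher. Microglia markers had 2 of 7 lower and erythroid genes 7 of 8 lower, and Flt1, the most abundant of 3 endothelial markers tested, was at -0.35 ± 0.25 and did not pass. Interneuron markers summed to 210.5 to 229.3 CPM at DIV3 and 117.8 to 122.4 CPM at DIV1, and Cajal-Retzius markers to 212.7 to 284.1 CPM at DIV3 and 180.8 to 208.9 CPM at DIV1. Astrocyte markers summed to 335.8 to 336.8 CPM at DIV3 and 351.6 to 353.7 CPM at DIV1, oligodendrocyte lineage markers to 47.97 to 52.61 CPM at DIV3 and 30.79 to 31.56 CPM at DIV1, and pericyte and fibroblast markers to 54.11 to 54.27 CPM at DIV3 and 16.42 to 17.79 CPM at DIV1. Microglia markers summed to 4.62 to 8.69 CPM at DIV3 and 11.78 to 11.87 CPM at DIV1, endothelial markers to 2.32 to 3.61 CPM at DIV3 and 3.59 to 3.96 CPM at DIV1, and erythroid genes to 1.58 to 1.94 CPM at DIV3 and 15.08 to 28.83 CPM at DIV1. A sum can follow 1 abundant gene. Reln, which was not called, had 226 and 164 CPM at DIV3 and 149 and 132 CPM at DIV1, most of the Cajal-Retzius sum. The median log2 fold change of that list was -0.28, with 5 of 8 negative. Aldoc, the largest part of the astrocyte sum, had 154 and 166 CPM at DIV3 and 220 CPM in both DIV1 libraries. The median of that list was 1.03, with 2 of 6 negative. The most genes of a list at 0 in any wild-type library was 2, among the endothelial and the erythroid genes. The part of these cells in the levels of the deep-layer genes was not tested.

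The second comparison set the knockout-labelled neurons against wild type at DIV1, which is also the group against which DIV3 was read, so the comparisons share their 2 wild-type DIV1 libraries. No deep-layer gene passed the test, and neither did any other gene: edgeR's quasi-likelihood F test called 0 of 16847 genes (0%), with 2475 at an unadjusted p under 0.05. DESeq2 called 192 of the 16847 genes, 40 higher and 152 lower. Of the 10 genes it called 2, both lower (Tle4 and Ldb2). Of the 10 genes, 4 had an unadjusted edgeR p under 0.05. The fold changes of the 10 genes were mostly small and negative: 9 of 10 were below 0, with a median log2 fold change of -0.30 against -0.0007 over all tested genes. Both knockout-labelled libraries lay below both wild-type DIV1 libraries for 7 of 10 genes, against 26.2% of all tested genes. The 10 genes were chosen with earlier results of these data known, so these values describe them and do not test them as a set.

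Tle4 had the log2 fold change furthest from 0 of the 10 with all libraries and TMM scaling. With the length trend removed Crym and Ldb2 were further from 0, and without the second knockout-labelled library Zfpm2 (-0.64) and Sox5 (-0.63) were further from 0 than Tle4 (-0.61). Tle4 was at 71.96 and 82.47 CPM in the knockout-labelled libraries, against 115.2 and 104.3 CPM in wild type at DIV1. The groups did not overlap, and the log2 fold change was -0.51 ± 0.09 (edgeR adjusted p = 0.227; DESeq2 adjusted p = 0.0032). Sox5 had 174.9 and 228.5 CPM in the knockout-labelled libraries, against 285.4 and 257.6 CPM in wild type (log2 fold change -0.43 ± 0.14, edgeR adjusted p = 0.333). Both knockout-labelled libraries were lower than wild type and stood apart from each other. Ldb2 had 31.85 and 36.22 CPM in the knockout-labelled libraries, against 44.36 and 44.74 CPM in wild type (log2 fold change -0.39 ± 0.08, edgeR adjusted p = 0.273; DESeq2 adjusted p = 0.0345). Tbr1 had 334.2 and 340.9 CPM in the knockout-labelled libraries, against 430.4 and 397.1 CPM in wild type (log2 fold change -0.29 ± 0.08, edgeR adjusted p = 0.333). Tbr1, Sox5, Tle4 and Ldb2 were the 4 genes with an unadjusted p under 0.05.

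Crym was at 5.56 and 5.48 CPM in the knockout-labelled libraries, against 6.63 and 7.28 CPM in wild type (log2 fold change -0.33 ± 0.14). Fezf2 was at 90.95 and 111.2 CPM in the knockout-labelled libraries, against 125.5 and 117.8 CPM in wild type (-0.27 ± 0.13), and Bcl11b at 270.1 and 281.6 CPM in the knockout-labelled libraries, against 334.9 and 305.6 CPM in wild type (-0.22 ± 0.10). These 3 were lower without overlap and did not pass. Zfpm2 was at 21.85 and 33.18 CPM in the knockout-labelled libraries, against 35.56 and 32.49 CPM in wild type (-0.30 ± 0.19), so its difference came from the first knockout-labelled library. Foxp2 was at 18.22 and 14.7 CPM in the knockout-labelled libraries, against 15.3 and 15.0 CPM in wild type (0.12 ± 0.13), and Nr4a2 at 25.19 and 29.16 CPM in the knockout-labelled libraries, against 26.36 and 29.35 CPM in wild type (-0.04 ± 0.11). For Zfpm2, Foxp2 and Nr4a2 the groups overlapped. A single knockout-labelled library moved several of these values. Without the first, the log2 fold change was -0.13 for Fezf2, -0.25 for Sox5, -0.04 for Zfpm2 and -0.04 for Foxp2. Without the second, it was -0.42 for Fezf2, -0.63 for Sox5, -0.64 for Zfpm2 and 0.27 for Foxp2.

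**Figure D3:**
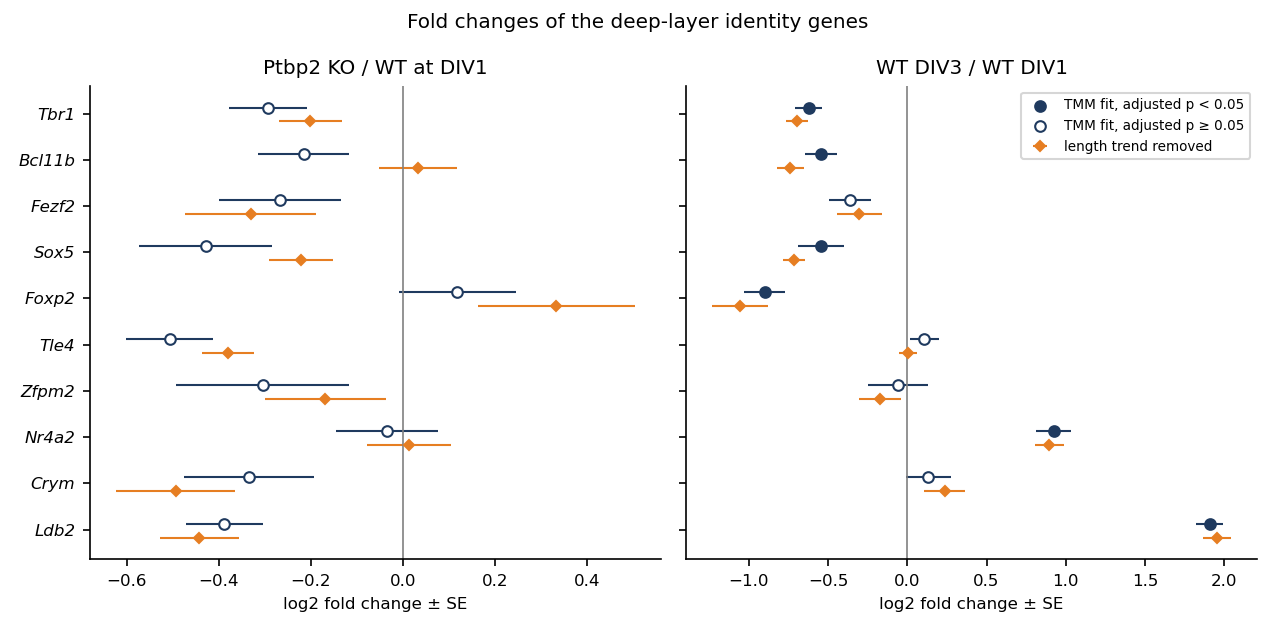
Log2 fold change ± SE of each gene for knockout-labelled over wild type at DIV1 (left) and DIV3 over DIV1 in wild type (right), with circles for the TMM fit, filled where the edgeR adjusted p was under 0.05, and diamonds for the fit with the length trend removed. No gene is filled on the left, and 6 are filled on the right; the 2 panels have different scales.

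These fold changes stood beside a trend with transcript length. Over all tested genes, the median log2 fold change of knockout-labelled over wild type was 0.22 in the fifth with the shortest transcripts (median 980 nt) and -0.19 in the fifth with the longest (median 5907 nt). Bcl11b, at 8035 nt, and Sox5, at 7037 nt, are among the longest, at percentiles 96.5 and 94.3 of the tested genes, while Crym, at 1390 nt, is at percentile 19.1. With the length trend removed, Bcl11b was at 0.03 ± 0.08, Nr4a2 at 0.01 ± 0.09, Sox5 at -0.22 ± 0.07, Tbr1 at -0.20 ± 0.07 and Tle4 at -0.38 ± 0.06 (edgeR adjusted p = 0.0844 for Tle4), so the sign of Bcl11b and of Nr4a2 turned. Ldb2 (2271 nt), Crym and Fezf2 moved further below 0, to -0.44 ± 0.09, -0.49 ± 0.13 and -0.33 ± 0.14. Foxp2 (6397 nt) moved further above 0, to 0.33 ± 0.17 (edgeR adjusted p = 0.401), and its groups then did not overlap. Then 7 of 10 fold changes were negative, the median was -0.21, and 6 of 10 genes were lower without overlap, against 21.4% of all tested genes. These counts too are descriptions of genes chosen with these data known. No deep-layer gene was called in this fit, which called 25 genes in all.

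**Figure D4:**
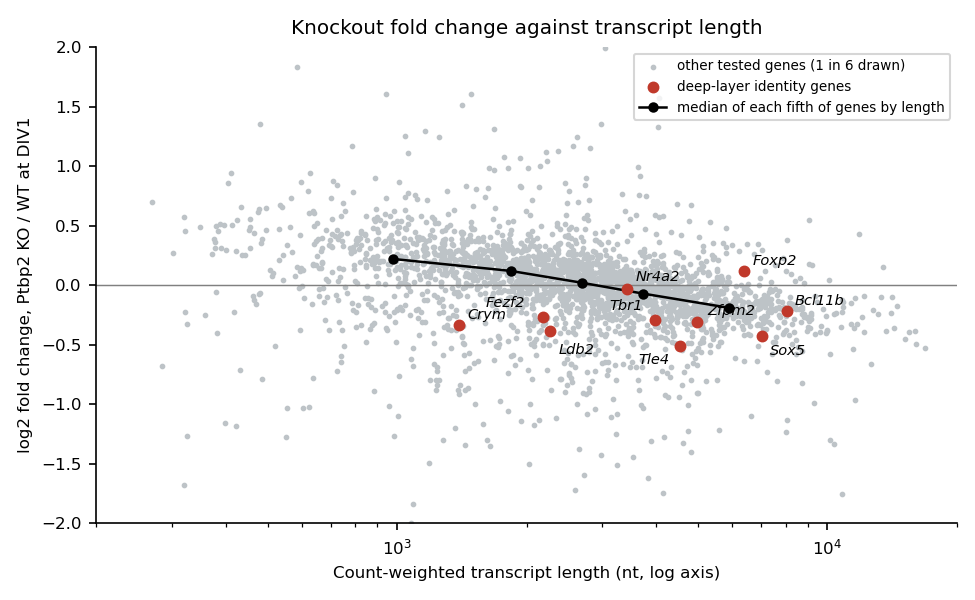
Log2 fold change of knockout-labelled over wild type at DIV1 against transcript length (log axis), with 1 in 6 of the other tested genes in grey, the 10 deep-layer genes in red and the medians of 5 equal groups of genes by length as a line. The line falls from 0.22 at 980 nt to -0.19 at 5907 nt; Crym, Fezf2 and Ldb2 lie below it at short lengths, and Foxp2 lies above it.

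The number of the 10 genes called varied with the library left out, the filter on low counts and the test. With all libraries edgeR called 0 and DESeq2 called 2 (Tle4 and Ldb2). Calls made with a knockout-labelled library left out rest on 1 library in that group and are not set against a share here. Without the second knockout-labelled library the log2 fold changes of Fezf2, Sox5 and Zfpm2 were further below 0. Without the first they were nearer to 0. Without a filter on low counts, and with all libraries, edgeR called 3 lower (Sox5, Tle4 and Ldb2). In that fit 1061 of 26492 tested genes were called, 508 higher and 553 lower.

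The other deep-layer lists, in a comparison where edgeR called no gene at all, are given by their medians. Of the 8 corticothalamic genes 7 had a negative log2 fold change, with a median of -0.53 (-0.45 with the length trend removed), and Rprm, the most abundant, was at 0.11 ± 0.09. The 10 subcerebral genes had a median of -0.04, with Cdh13 at -0.15 ± 0.07, and the 9 subplate genes a median of 0.08, with Pls3 at -0.07 ± 0.08. The 21 fate regulators had a median of -0.11, with Sox11 at 0.14 ± 0.14, the 15 paralogs 0.04, with Bcl11a at -0.21 ± 0.11, and the 9 LIM cofactor partners 0.04, with Ssbp3 at -0.07 ± 0.08. Summed levels of the markers of other cells were 1052 to 1071 CPM in the knockout-labelled libraries and 1072 to 1114 CPM in wild type for intermediate progenitors, and 1330 to 1447 CPM in the knockout-labelled libraries and 1501 to 1572 CPM in wild type for upper-layer neurons. Radial glia markers summed to 1991 to 2232 CPM in the knockout-labelled libraries and 1923 to 1981 CPM in wild type, and erythroid genes to 35.87 to 46.4 CPM in the knockout-labelled libraries and 15.08 to 28.83 CPM in wild type. The Cajal-Retzius sum was 128.8 and 167.6 CPM in the knockout-labelled libraries and 208.9 and 180.8 CPM in wild type (7 of 8 fold changes negative, median log2 fold change -0.39), and the oligodendrocyte lineage sum 27.71 and 27.95 CPM in the knockout-labelled libraries and 31.56 and 30.79 CPM in wild type (6 of 7 negative, median -0.60). Both sums were lower without overlap, as were the upper-layer, pan-neuronal, subcerebral, corticothalamic, fate regulator and reported target sums. The corticothalamic sum was 262.4 and 232.4 CPM in the knockout-labelled libraries and 262.9 and 264.7 CPM in wild type. The intermediate progenitor sum was lower by little, and 4 of its 10 fold changes were negative. The radial glia, erythroid, endothelial, subplate and paralog sums were higher without overlap. Among single genes, 26.2% of all tested were lower without overlap. The median of the oligodendrocyte lineage list was further below 0 than that of the corticothalamic list. Of the 12 upper-layer markers 10 had a negative fold change, with a median log2 fold change of -0.21 (0.00 with the length trend removed). The other lists had medians of -0.11 (pan-neuronal), 0.00 (astrocyte), 0.02 (intermediate progenitor), 0.05 (interneuron) and 0.08 (pericyte and fibroblast). Medians were 0.08 for microglia, 0.11 for radial glia, 0.17 for endothelial and 0.84 for erythroid genes. The interneuron sum was 135.4 and 103.5 CPM in the knockout-labelled libraries, on either side of wild type at 117.8 and 122.4 CPM. The part of these cells in the fold changes above was not tested.

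The deposited transcript counts allow the forms of the deep-layer genes to be compared. Fezf2 and Zfpm2 are represented by 1 transcript each, and Tbr1-201, Bcl11b-201 and Crym-201 held at least 96.55% of their gene's counts in every library. Nr4a2, Ldb2, Tle4, Foxp2 and Sox5 had 2 or more transcripts at a mean share of 5% or more and were tested for a change in shares (edgeR's diffSpliceDGE with the Simes test; called at an adjusted p under 0.05 and a share difference of at least 10 percentage points).

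Nr4a2 was the 1 gene of the 5 whose transcript usage was called in the knockout-labelled neurons (adjusted p = 0.00218, largest share difference 35.6 points), where 0.562% of 7645 tested genes were called. Its transcripts begin at alternative first exons: Nr4a2-201 at chr2:57114718-57115038, and Nr4a2-203 and Nr4a2-206 upstream at chr2:57123829-57124003. Nr4a2-203 has the same coding length as Nr4a2-201 (1794 nt), and Nr4a2-206 is annotated for nonsense-mediated decay. Nr4a2-201 held 26.89% and 56.48% of the gene's counts in the knockout-labelled libraries, against 77.96% and 76.69% in wild type at DIV1. Nr4a2-203 held 32.54% and 25.99% (438.95 and 557.81 expected counts) in the knockout-labelled libraries, and was listed at 0 in all 4 wild-type libraries, where 3 counts would be 0.236% and 0.201% of the gene at DIV1. The floor covers counting error only. Nr4a2-206 held 39.7% and 15.32% in the knockout-labelled libraries, against 19.02% and 21.23% in wild type, so its groups overlapped.

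Together the 2 transcripts with the upstream first exon held 72.24% and 41.31% in the knockout-labelled libraries, 11.09% and 13.88% at DIV3, and 19.02% and 21.23% in wild type at DIV1. Both knockout-labelled libraries lay above all 4 wild-type libraries, and they differed from each other by more than any wild-type pair. The total level of Nr4a2 in the same libraries was not called (log2 fold change -0.04). The share call was lost without the first wild-type DIV1 library (adjusted p = 0.0758), without the second (0.0622) and with limma's diffSplice (0.279). RSEM splits reads shared between transcripts by a model, and the error of that split is not in the tables. The first knockout-labelled library, with the larger upstream share, also had relatively fewer counts for long transcripts than the second, and the part of that trend in the shares was not tested.

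The 250 bases before the upstream first exon are shown because Nr4a2-203 and Nr4a2-206 start just after them (chr2:57124004-57124253, minus strand, 5′ to 3′, from RefSeq's promoter table on GRCm38.p6). Capitals mark matches, on either strand, to the SOX core ACAAT, to the core TGACG of the cAMP response element and to the TATA box TATAAA.
Nr4a2 upstream promoter: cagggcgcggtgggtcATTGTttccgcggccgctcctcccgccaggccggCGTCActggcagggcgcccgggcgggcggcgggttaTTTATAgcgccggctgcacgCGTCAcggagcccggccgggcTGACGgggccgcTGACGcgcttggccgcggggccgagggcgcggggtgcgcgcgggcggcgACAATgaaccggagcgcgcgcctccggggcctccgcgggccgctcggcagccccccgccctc
The window is 80% G and C. It holds 2 matches to ACAAT, 4 to TGACG and 1 to TATAAA, and no motif overlaps another. Of 32851 promoter windows of this length, 27.7% hold at least 1 match to ACAAT, 17.8% to TGACG and 12.4% to TATAAA. Those windows were not matched for G and C content. The full element TGACGTCA, found in 1.55% of windows, and the Nr4a-family element AAAGGTCA, found in 1.34%, have no match. A match describes letters and not a bound site.

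**Figure D5:**
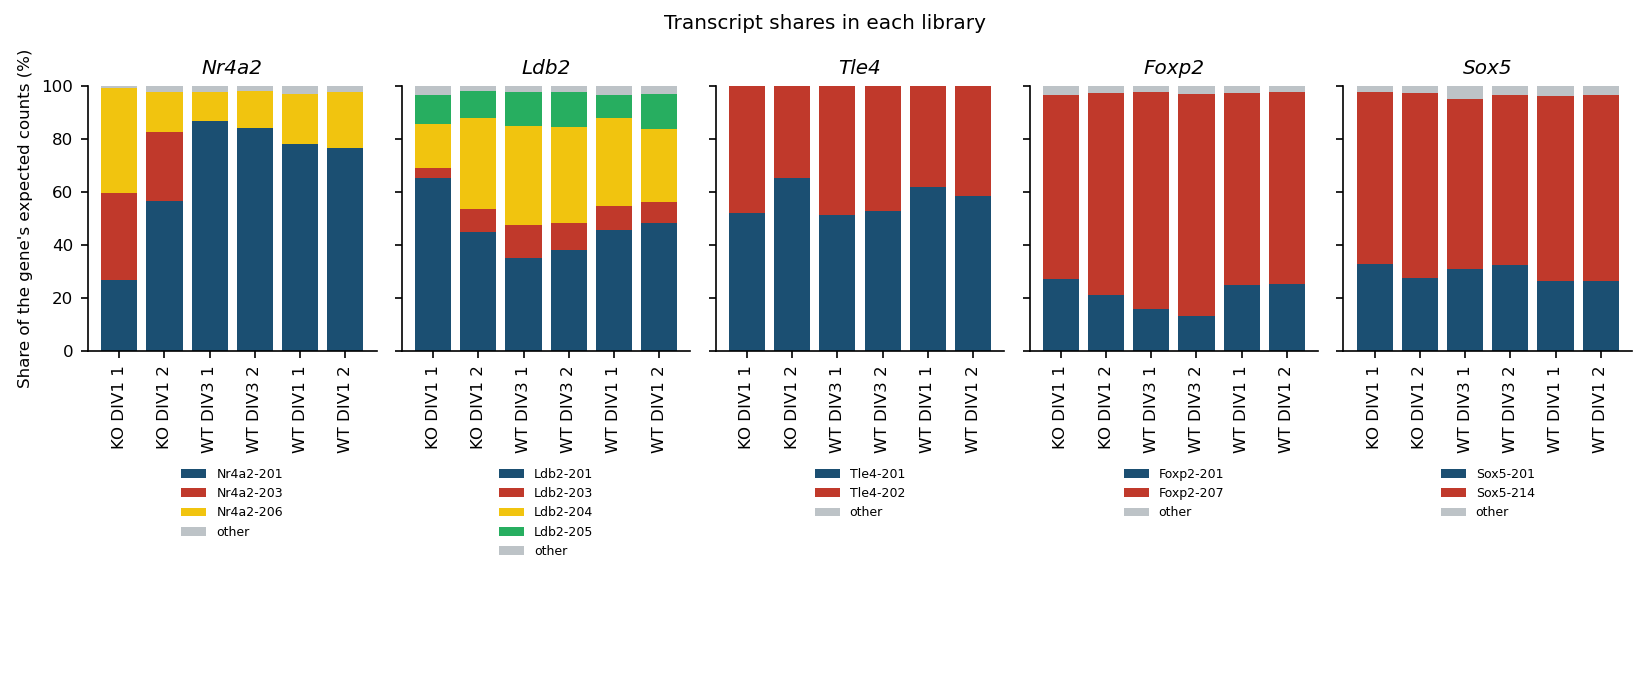
Share of each gene's expected counts held by each transcript in each of the 6 libraries (bars stack to 100%; other, transcripts under the 5% minimum). Nr4a2-203 is seen in the 2 knockout-labelled libraries only, at 32.54% and 25.99%, and Ldb2 in the first knockout-labelled library differs from the second.

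Between DIV3 and DIV1 no deep-layer gene changed its transcript usage at the threshold, in a comparison that called 0.458% of 7645 genes (35). The unadjusted p of the 5 genes was 0.628 or more, and 0 of them were called by limma's diffSplice. Of the Ldb2 transcripts, Ldb2-201 held 35.15% and 37.98% at DIV3, against 45.57% and 48.07% in wild type at DIV1, and Ldb2-204 held 37.07% and 36.36% at DIV3, against 33.15% and 27.5% at DIV1. The groups did not overlap for either transcript, and the share of all tested transcripts without overlap was not counted. In the knockout-labelled libraries Ldb2-201 held 65.18% and 44.74%, a spread that covers the wild-type DIV1 values. Ldb2-204 has an exon that Ldb2-201 lacks, chr5:44476493-44476635 (minus strand, GRCm38), in which its coding sequence ends. The coding part of that exon, chr5:44476531-44476635, is shown because it gives LDB2 another C-terminal end; the stop codon is in capitals (GENCODE M21 transcript).
Ldb2-204 exon, coding part: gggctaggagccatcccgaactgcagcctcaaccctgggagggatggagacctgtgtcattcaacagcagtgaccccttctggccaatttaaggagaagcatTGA

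Tle4 has 2 transcripts of equal length that differ in a 17 nt coding exon, which are alternatives to each other. Tle4-201 uses chr19:14516359-14516375 and Tle4-202 uses chr19:14491783-14491799 (minus strand, GRCm38; GENCODE M21 transcripts). The exons are shown because they are the whole difference between the forms, with the 9 bases that differ in capitals.
Tle4-201 exon: ACAGAgactcCAtCAag
Tle4-202 exon: TTCATgactcTTtAGag
Tle4-202 held 48.91% and 47.21% at DIV3, against 38.07% and 41.4% in wild type at DIV1. The groups did not overlap, and the change was not called (diffSpliceDGE with the Simes test, unadjusted p = 0.628). In the knockout-labelled libraries it held 47.83% and 34.91%, against the same wild-type values, so the 2 libraries lay on either side of them.

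Sox5-201 and Sox5-214 differ in a 147 nt coding exon, chr6:143907387-143907533 (minus strand, GRCm38), which Sox5-201 holds and Sox5-214 lacks, and in where another exon begins. The exon adds 49 codons without a change of frame and is shown as the coding difference between the SOX5 forms (GENCODE M21 transcript, no capitals).
Sox5-201 exon: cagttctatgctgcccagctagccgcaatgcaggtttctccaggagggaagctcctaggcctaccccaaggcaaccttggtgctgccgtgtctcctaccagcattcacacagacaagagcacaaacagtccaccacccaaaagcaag
Sox5-201 held 32.81% and 27.56% in the knockout-labelled libraries, 31.04% and 32.4% at DIV3, and 26.29% and 26.45% in wild type at DIV1. The largest share difference was 6.06 points at DIV3, under the 10 points a call needs.

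Foxp2-201 and Foxp2-207 have equal coding lengths (2142 nt) and begin at different first exons, at chr6:15185506-15185817 and chr6:14901349-14901761. Foxp2-207 held 81.97% and 83.95% at DIV3, against 72.68% and 72.48% in wild type at DIV1. In the knockout-labelled libraries it held 69.39% and 76.13%, on either side of wild type. The DIV3 shares rest on 591 and 298 counts of the gene, the fewest of the 5 genes, and the difference of 10.7 points for Foxp2-201 was not called.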

How the data were processed

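Gene and transcript values were deposited by the authors in a unit of expected counts, estimated read counts that need not be whole and are not scaled for depth or length. TRIzol extraction, DNase treatment and a TruSeq stranded total RNA kit are named per the labels' protocols. STAR, RSEM and the build GRCm38 (mm10) are named per the submitters' processing notes. Versions and annotation: not given in the sources used here. All gene lists and the 10 genes themselves were chosen with earlier results of these data known.

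Names, lengths and coordinates came from GENCODE M21 by identifier (99.5% of genes and 99.4% of transcripts matched). Expected counts were rounded, filtered with filterByExpr (minimum count 10), scaled by TMM (factors 0.95 to 1.039) and tested in edgeR 4.0.16 (R 4.3.3), in a single fit of all 6 libraries without covariates. The contrasts were knockout against wild type at DIV1 and DIV3 against DIV1 in wild type. CPM were computed here with TMM factors, and TPM from transcript counts and annotated lengths. Transcript shares were tested with diffSpliceDGE on 21513 transcripts of 7645 genes. The length trend was removed with a lowess offset per library (span 0.3). Scripts were tested on simulated data.

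Alternatives used RLE factors, library totals, DESeq2 1.42.0, limma 3.58.1, no filter, only the groups compared, the replicate number as a block, the length trend and each library left out. From each list the text names up to 3 called genes, by smallest adjusted p, and the most abundant gene not called. Promoter windows came from RefSeq (GRCm38.p6), which held 6 of the 10 genes. Figures were drawn with matplotlib 3.10.9.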

Additional observations from a re-analysis of the deposited data

How the results depend on the processing

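For DIV3 against DIV1, the log2 fold changes of the 10 genes under the alternatives kept direction and side of the threshold in 125 comparisons with the main analysis, passed only under the alternative in 5, lost their call in 7 and changed sign in 3; for knockout-labelled against wild type these counts were 122, 11, 0 and 7. A library left out leaves 1 in its group, which is assumed to vary like the others. Over these omissions the genes called ranged from 2743 to 8698 at DIV3 and from 0 to 5549 in the knockout-labelled contrast, where 0 to 6 deep-layer genes were called. Transcript usage was called in 25 to 64 genes at DIV3, in 23 to 699 in the knockout-labelled contrast, and in 0 to 1 deep-layer genes there.

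In the knockout-labelled contrast DESeq2 called 192 of 16847 genes, 2 of them deep-layer (Tle4 and Ldb2). No filter on low counts gave 1061 of 26492 genes and 3 deep-layer genes (Sox5, Tle4 and Ldb2). Removal of the length trend gave 25 of 16847 genes and 0 deep-layer genes. For transcript usage, the F test called 126 genes at DIV3 and 105 in the knockout-labelled contrast, limma 73 at DIV3 and 0 deep-layer genes in the knockout-labelled contrast, and a 10% minimum share 22 and 19 genes. The cause was not tested.

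Scaling by library totals gave 2563 higher and 3996 lower genes at DIV3 (3328 and 2760 with TMM) and a median of -0.1327 (-0.016 with TMM) on the log2 scale, with Tle4 at -0.0083 and Fezf2 called (adjusted p = 0.0352). Removal of the length trend turned Bcl11b to 0.0327 and Nr4a2 to 0.0131 in the knockout-labelled contrast (0.0288 and 0.0131 with the replicate block as well). Left-out libraries gave -0.1226 to 0.0055 for Zfpm2 and -0.0161 to 0.2803 for Crym at DIV3, and -0.0429 to 0.2667 for Foxp2 and -0.1453 to 0.0662 for Nr4a2 in the knockout-labelled contrast.

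Replicate numbers are shared across groups in the labels, but same-numbered libraries did not deviate together throughout (r = 0.038 between knockout-labelled and wild type at DIV1, 0.38 between DIV3 and DIV1, over genes), so the numbers were not taken as pairs. The replicate block called 4702 genes and 5 deep-layer genes at DIV3, without Sox5 (adjusted p = 0.0582), 0 genes in the knockout-labelled contrast, and 21 genes for transcript usage at DIV3.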

Other observations

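Of 5 listed genes reported elsewhere as targets of TBR1 or FEZF2, 2 rose and 1 fell at DIV3, where 36.1% of all tested genes were called. Fezf2 itself was not called at DIV3. Grin2b, an NMDA receptor subunit gene reported as a TBR1 target, averaged 394 ± 22.2 CPM at DIV3 and 145 ± 1.93 CPM in wild type at DIV1 (SD, n = 2 each; log2 fold change 1.44 ± 0.12, edgeR adjusted p = 0.000279). Auts2, also a reported TBR1 target, averaged 193 ± 0.58 CPM at DIV3 and 272 ± 2.51 CPM at DIV1 (-0.50 ± 0.09, adjusted p = 0.0065). Ephb1, an Eph receptor gene reported as a FEZF2 target, was at 0.41 ± 0.07 (adjusted p = 0.00449), and Reln, a TBR1 target expressed by Cajal-Retzius cells, was at 0.47 ± 0.19 and did not pass (0.094). In the knockout-labelled neurons, where edgeR called no gene, the 5 had a median log2 fold change of -0.29 (-0.17 with the length trend removed).

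Across the 6 libraries, log2 CPM of each deep-layer gene was also set beside 82 other genes. These were the rest of the 10 and the deep-layer, regulator, paralog, partner and target lists. The r values are descriptions and depend on which libraries stand apart. For Ldb2 and Nr4a2 these were the DIV3 libraries, for Tle4 the knockout-labelled libraries, and for Zfpm2 the first knockout-labelled library. The nearest gene to Tbr1 was Bcl11b (Pearson r = 0.983), to Sox5 Fezf2 (0.979) and to Foxp2 Nfia (0.992). Ldb2 lay nearest to Cdh18 and Cdh13 (both 0.999), and Nr4a2 to Ntng1 (0.995) and Ssbp2 (0.994). Tle4 lay nearest to Hs3st4 (0.949), Crym to Slc17a7 (0.898), and Zfpm2 to Pou3f3 and Neurod6 (both 0.883).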
